A study of Mus musculus with 5 samples.

Results

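The cytosolic ribosomal protein genes of large-intestinal regulatory T (Treg) cells were examined for H3K27ac, the acetylation of lysine 27 on histone H3 that is found at active promoters and enhancers. The members were the protein-coding mouse genes of GENCODE M21 whose symbols begin with Rpl or Rps and a digit, together with Rplp0, Rplp1, Rplp2 and Rpsa. Of 102 genes with such a name, 10 Rps6k kinase genes and 6 genes named as pseudogenes were dropped, which left 86 members of 21951 protein-coding genes. They were 43 genes of the large (60S) subunit, 31 of the small (40S) subunit, 3 of the stalk, 8 paralogs or retrocopies, and Rps19bp1. The last gene met the naming rule but encodes a protein that binds RPS19 and is not part of the ribosome.

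H3K27ac had been profiled by CUT&Tag, in which an antibody brings the transposase Tn5 to a histone mark and sequencing adapters are inserted into the DNA beside it. Ctrl mice carried Foxp3 Cre (Cre-YFP, expressed in Treg cells from the Foxp3 locus) and Setd2 flox/+, so the controls had a floxed allele too. KO mice carried Foxp3 Cre and Setd2 flox/flox, which is meant to remove this H3K36 methyltransferase from Foxp3-expressing cells. H3K27ac counts do not measure the deletion itself. All mice were C57BL/6 and 2 weeks of age. Each library came from YFP-positive CD4+ T cells sorted from the large intestine of several littermates, females and males pooled, and each group had 2 libraries. The question put to the data here was how much H3K27ac the ribosomal protein gene promoters carried, how it was laid out, and whether it differed in KO.

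Over all peaks the library Ctrl 1 held 2395002 counts and Ctrl 2 held 3630447. The library KO 1 held 3007444, and 4712473 were in KO 2. KO 2 was thus the deepest library, and 40.9% of its counts fell in promoter peaks, against 37.4% to 38.5% in the other 3. All 7 T and Treg cell markers (Foxp3, Il2ra, Ctla4, Ikzf2, Cd4, Cd3e and Cd3g) had a promoter peak and a start site in a peak. Their summed levels were 787 to 1142 CPM (counts scaled to library depth). The start site of no B cell, myeloid or epithelial marker lay in a peak, and the summed level of each of these lists stayed at 24.4 CPM or less. A promoter peak, which need not cover the start site, was present for all 4 epithelial and 2 of the 4 B cell markers. Of the 3 stromal markers 2 had a promoter peak and 1 had its start in a peak, and this list summed to 78.7 to 107 CPM. Nearly all of it was Pecam1, with 74.65 and 102.4 CPM in Ctrl and 84.95 and 107.3 CPM in KO. Pdgfra had 4.07 and 0.0 CPM in Ctrl and 0.373 and 0.0 CPM in KO, and Col1a1 had no promoter peak. The lists of 2 NK and innate and 2 CD8 cell markers also had 1 start each in a peak, with sums of 11.6 to 21.6 and 6.25 to 11.3 CPM. The part of such cells in the members' values was not tested. None of the 4 myeloid markers (Csf1r, Itgam, Lyz2 and Adgre1) had a promoter peak. In cells sorted as a population, fewer cells carrying the mark and less of it per cell cannot be told apart.

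The ribosome is built from ribosomal RNA and a fixed set of proteins, most of which are needed as a single copy in every particle. Their genes are short, rich in introns and among the most highly transcribed in dividing cells. They lie scattered over the genome, here on 19 chromosomes, and cells keep their output in step although the genes are not neighbours. Many of their mRNAs begin with a run of pyrimidines, the 5′ terminal oligopyrimidine (TOP) tract, through which the growth kinase mTOR controls how strongly they are translated. Activated and proliferating T cells depend on this machinery for growth.

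The promoter starts of these genes were read from RefSeq (GRCm38.p6, the assembly of mm10). A window of 300 bases, 250 before and 50 after an annotated start, was found for 66 of the 86 members, 78 windows in all. A start of TOP type was scored when at least 5 pyrimidines in a row were read from a C within 5 bases of the annotated start. Bases before that C were not looked at, so a scored run can be the end of a longer one, as in Rpl14 below. The examples below run from 30 bases before to 20 bases after the annotated start, 5′ to 3′ on the sense strand, with that run in capitals. Rpl27a and Rpl15 are shown for having the longest runs (chosen after their values were seen), Rplp2 and Rps6 for their role and level, Rpl14 and Rps9 for the lowest levels of H3K27ac per kb among tested members, and Rps27 with Rps27rt as a gene and its retrocopy.
Rpl27a, chr7:109519165-109519214, plus strand: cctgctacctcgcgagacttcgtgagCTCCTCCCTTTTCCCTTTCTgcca
Rpl15, chr14:18270967-18271016, minus strand: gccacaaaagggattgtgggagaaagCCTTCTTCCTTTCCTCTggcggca
Rplp2, chr7:141447621-141447670, plus strand: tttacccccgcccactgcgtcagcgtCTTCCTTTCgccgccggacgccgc
Rps6, chr4:86857348-86857397, minus strand: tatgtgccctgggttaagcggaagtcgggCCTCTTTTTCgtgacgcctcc
Rpl14, chr9:120571487-120571536, plus strand: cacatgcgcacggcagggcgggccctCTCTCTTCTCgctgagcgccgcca
Rps9, chr7:3704011-3704060, plus strand: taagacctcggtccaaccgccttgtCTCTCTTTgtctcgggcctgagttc
Rps27, chr3:90213629-90213678, minus strand: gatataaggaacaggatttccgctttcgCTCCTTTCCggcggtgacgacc
Rps27rt, chr9:114982720-114982769, minus strand: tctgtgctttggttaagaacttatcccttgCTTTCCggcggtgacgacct

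Of the 78 member windows, 32 (41.0%) had such a start, against 18.7% of 20150 windows of protein-coding genes and 19.4% of those whose gene had a promoter peak. The run had a median length of 8 bases in the members that had one, up to 20 in Rpl27a and 17 in Rpl15, and 6 bases over all genes. Of the 75 windows of mitochondrial ribosomal protein starts, 17 windows (22.7%) held it, and of the 45 windows of proteasome starts, 9 windows did. Other core motifs were looked for on both strands of the whole window. The ETS core CCGGAAG was present in 34.6% of member windows, 11.9% of all windows and 17.3% of those of genes with a promoter peak. It was also in 34.7% of mitochondrial ribosomal protein and 35.6% of proteasome windows. The YY1 core AAGATGG was in 15.4% of member windows and 6.30% of all, and in 17.3% of mitochondrial ribosomal protein and 17.8% of proteasome windows. The Sp/KLF core GGGCGG was in 60.3% of member windows, 47.8% of all and 59.5% of those of genes with a promoter peak. The E-box CACGTG was in 10.3%, 8.03% and 9.51% of the same windows. A TATA box spelled TATAAA was found in 8.97% of member windows, 12.2% of all and 7.71% of those of genes with a promoter peak. TATAT or TTTAA between 35 and 20 bases before the start was found in 7.69%, 5.26% and 3.32%, and these spellings can share letters with TATAAA. Median GC content was 58.2% in member windows, 57.0% in all and 60% in those of genes with a promoter peak. A match to a few letters is a description of the sequence and says nothing of what binds there. Run lengths leave out any pyrimidines before the C from which a run was read. A run with no such C within 5 bases of the annotated start was not counted.

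Nearly every ribosomal protein gene promoter was marked. A promoter peak was any deposited peak that lay 3 kb or less from the transcription start site (TSS) of a gene, and the counts of such peaks were summed per gene. By this measure 84 of 86 members (97.7%) had a promoter peak, against 57.6% of all protein-coding genes, and in 82 (95.3%) a TSS lay inside a peak, against 44.0%. The same held for other housekeeping complexes, with a promoter peak at 96.2% of 78 mitochondrial ribosomal protein genes and 94.0% of 50 proteasome genes. The 4 members with no TSS in a peak were paralogs or retrocopies. Rpl39l, a relative of Rpl39, and Rps27rt, a retrocopy of Rps27, had no peak within 3 kb. Rpl10l, a retrocopy of Rpl10 known from testis, had a single peak of 284 bp, 179 bp from its TSS, with 13 counts in KO 1 and 1 or 2 in each of the other libraries, and was not tested. For Rpl3l, a muscle paralog of Rpl3, the nearest peak lay 2655 bp away.

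The mark reached well into the bodies of these genes. In the 78 members whose 5′ end was in a peak, that peak reached a median of 664 bp upstream and 1706 bp downstream, and the downstream arm was the longer one in 63 (80.8%). Over all 8817 such genes the medians were 633 bp and 977 bp, with the downstream arm longer in 67.8%. Members are short, with a median length of 3328 bp against 17400 bp for all protein-coding genes. A set of 2231 genes with a promoter peak was 1564 to 7288 bp long, a length range set by the members, which were not removed from it. The median length in that set was 4454 bp, so its genes were still longer than the members. Where the 5′ end was in a peak, the median downstream reach in that set was 1048 bp. Peaks covered a median of 64.3% of the span of a member with a promoter peak, 28.7% of genes of that length range and 13.5% of all genes with a promoter peak. The whole annotated span was under peaks in 7 members, among them Rpl36, Rpl41, Rps15 and Rps26.

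**Figure D1:**
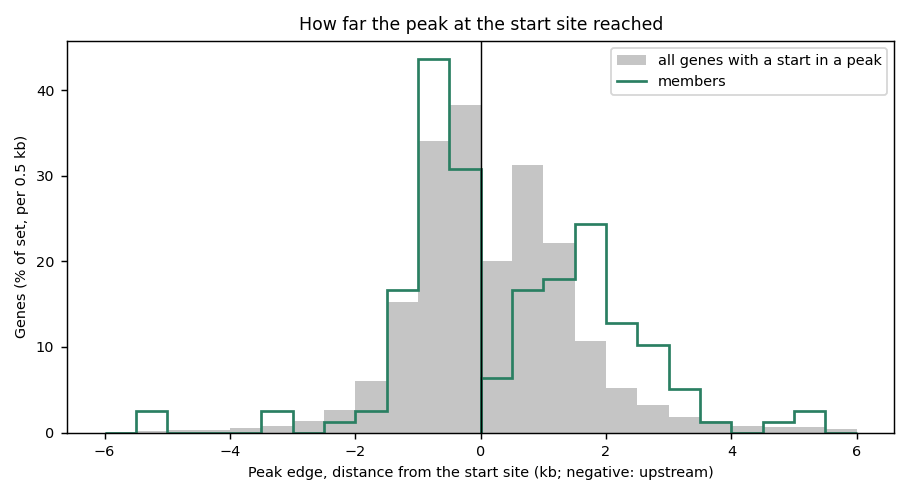
The distance from the 5′ end of a gene to the edges of the peak that covers it (kb; negative is upstream) is plotted against the share of genes in each 0.5 kb step, with members as a green line (n = 78) and all such genes in grey (n = 8817). The curves run close together upstream, and downstream the members are shifted to longer distances, with 24.4% of members and 10.6% of all genes ending between 1.5 and 2 kb; edges beyond 6 kb are not drawn.

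Many of these genes also carry the small nucleolar RNAs (snoRNAs) that guide modification of ribosomal RNA, in their introns. In the annotation 30 of the 86 members (34.9%) hosted a snoRNA, 58 in all, against 1.27% of protein-coding genes, and Rpl4 hosted 5. Because reads are counted per peak, 28 of the 84 members with a promoter peak (33.3%) shared a peak with another gene, against 26.4% of all genes with a promoter peak. The peaks given to Rpl3l were also those of Rps2, Ndufb10 and Msrb1, so its value is largely that of its neighbours. Rps10 shared its peaks with the readthrough gene RPS10-NUDT3. Rps14 and Rpl11 have long annotated spans, 31449 and 25164 bp. Of 307 ribosomal protein pseudogenes, 4 had their annotated 5′ end in a peak and 63 (20.5%) had a peak within 3 kb of it. Overlap with the rest of their span was not measured. Since uniquely mapped reads were kept, signal in exons with close copies elsewhere can be undercounted. Over their full windows of 300 bases, of which the middle part is printed above, Rps27 and Rps27rt share an unbroken run of 38 bases.

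Most ribosomal protein genes carried similar H3K27ac per kb, a little above the middle of all genes. Members tested had a median of 15.2 CPM per kb of promoter peak in Ctrl (quartiles 12.04 and 17.7), against 12.7 (quartiles 9.88 and 16.3) over the 11561 genes tested. The highest and lowest tested members differed 3.8-fold. The median member stood at the percentile 71.2 of genes with a promoter peak by level per kb and at 71.7 by the width of its peaks, so both measures were above the middle. The median promoter peak sum covered 3200 bp in members and 2257 bp over all genes tested. Large and small subunit genes had medians of 14.9 and 15.1 CPM per kb.

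Rpl21, a protein of the large subunit, had the highest level, at 31.1 and 33.4 CPM per kb in Ctrl and 34.4 and 31.9 in KO. Rpl7, next in order, had 30.4 and 21.0 in Ctrl and 20.2 and 24.2 in KO. Rpl41, which encodes the smallest ribosomal protein, had 29.2 and 16.7 in Ctrl and 24.7 and 24.9 in KO. These 3 genes show the spread between libraries, which was small for Rpl21 and wide for Rpl41. Rps7 had 24.5 and 20.9 in Ctrl and 20.2 and 23.7 in KO, and Rplp2, an acidic protein of the stalk that recruits translation factors, had 19.7 and 25.6 in Ctrl and 17.7 and 24.9 in KO.

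At the other end of the order stood Rpl10l, described above, followed by genes of both subunits. Rpl14 had 8.30 and 8.66 CPM per kb in Ctrl and 14.2 and 13.0 in KO. Rps9, a protein of the small subunit that takes part in decoding accuracy, had 9.17 and 8.97 in Ctrl and 13.7 and 13.8 in KO. For both genes the KO libraries lay above the Ctrl libraries. Rpl6 had 6.64 and 11.8 in Ctrl and 7.0 and 11.6 in KO, with the libraries of the same number close together. Rpl10, an X-linked gene whose protein is one of the last to join the 60S subunit, had 8.78 and 9.84 in Ctrl and 13.7 and 13.2 in KO.

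**Figure D2:**
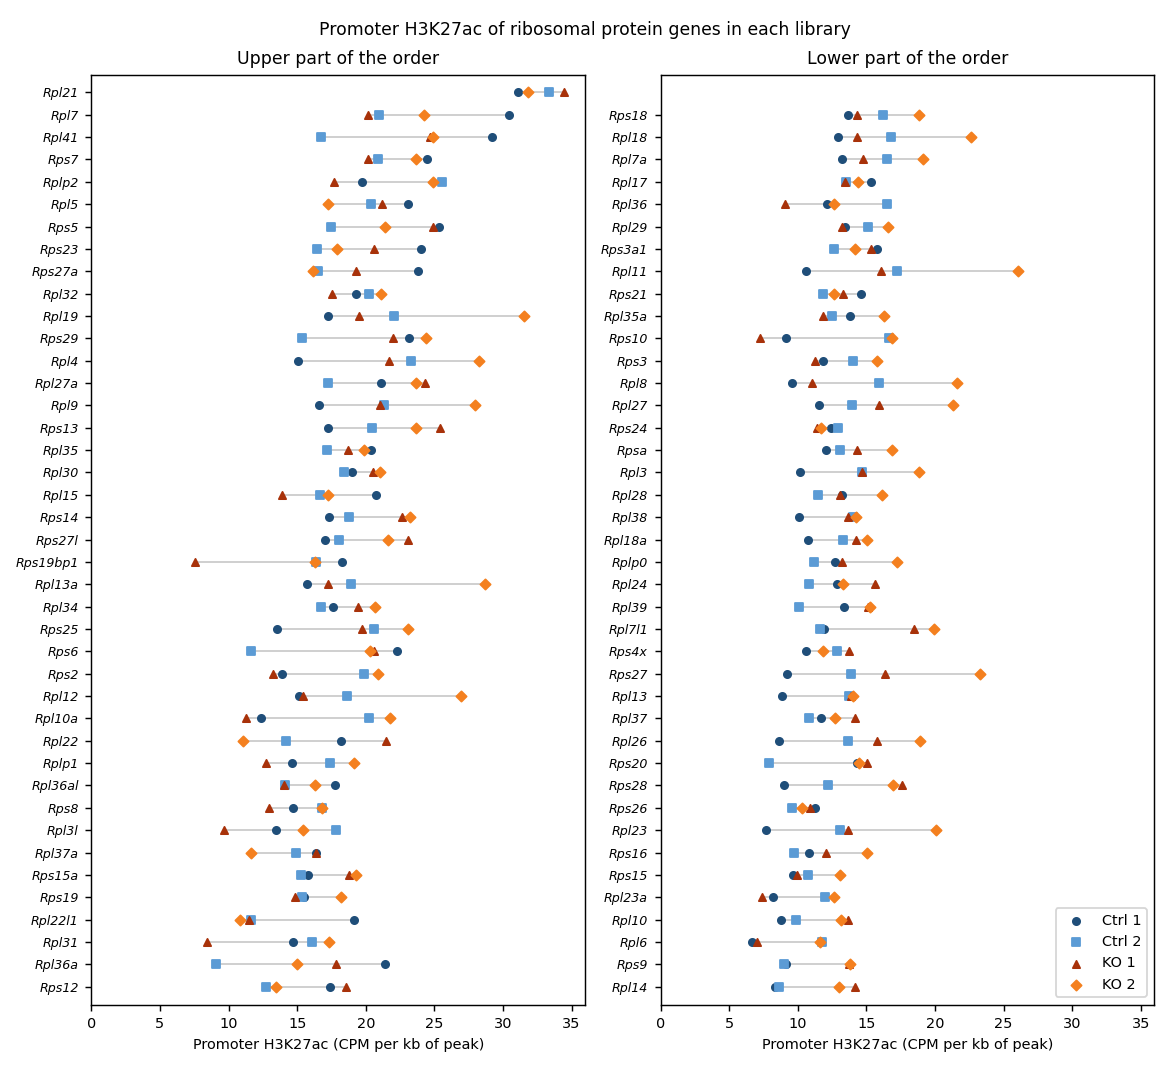
Promoter H3K27ac (CPM per kb of promoter peak) is plotted for 81 of the tested members in each of the 4 libraries, with members ordered by their mean in Ctrl; blue symbols are Ctrl, red and orange are KO, and a grey line spans the libraries. Rpl21 stands apart at the top, and most other members overlap their neighbours within the range of their libraries.

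Neighbours in the order were mostly not told apart. Of the 82 steps between neighbours in it, 1 was larger than the larger SD of the Ctrl libraries of the genes on either side. That was the step of 6.54 CPM per kb from Rpl21 to Rpl7. Many members lie close together, so most steps are small, and this count does not show how firm the wider order was. The median SD of a member in Ctrl was 2.30 CPM per kb (n = 2). Members with a TOP-type start had a median of 15.4 CPM per kb (29 genes with a level) and members whose window lacked one 13.9 (35 genes).

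The paralog pairs varied in their marking. Rpl39 had 13.4 and 10.1 CPM per kb in Ctrl and 15.1 and 15.2 in KO, whereas Rpl39l had no peak. Rps27 had 9.21 and 13.9 in Ctrl and 16.4 and 23.3 in KO, and its paralog Rps27l, a p53-induced gene, 17.1 and 18.1 in Ctrl and 23.1 and 21.6 in KO. Rpl36a on X had 21.4 and 9.11 in Ctrl and 17.9 and 15.0 in KO, and its autosomal copy Rpl36al 17.7 and 14.1 in Ctrl and 14.1 and 16.3 in KO. Rps27l was thus above Rps27 in 3 of 4 libraries, while the order of Rpl36a and Rpl36al changed between libraries. Rpl22 had 18.2 and 14.2 in Ctrl and 21.5 and 11.1 in KO, and Rpl22l1, which can take its place in the ribosome, 19.2 and 11.7 in Ctrl and 11.5 and 10.8 in KO. Rpl3 had 10.2 and 14.7 in Ctrl and 14.7 and 18.9 in KO. Rpl7l1, a paralog of Rpl7, had 11.9 and 11.6 in Ctrl and 18.5 and 19.9 in KO, below Rpl7 in every library. The promoter peaks of Rpl36a, Rpl36al, Rps27 and Rpl7 were shared with Btk, Mgat2, Rab13 and Rdh10, in that order. Values of those members, and the orders that rest on them, cannot be assigned to the paralogs alone.

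No ribosomal protein gene promoter differed between KO and Ctrl at an adjusted p under 0.05. Counts per gene were compared by the quasi-likelihood test of edgeR with Benjamini-Hochberg adjustment over all 11561 genes tested, which included 83 members, and the smallest adjusted p of a member was 0.999. Of all genes tested 0.0% were called. DESeq2 called 0 members as well. At an unadjusted p under 0.05 edgeR gave 3 members, all higher in KO, where the same rule was met by 0.83% of all genes tested in that direction and 0.458% in the other; DESeq2 gave 0 members. The median log2 fold change of the members was 0.15, against 0.07 over all genes tested, and the standard error (SE) of a member's value was 0.28 at the median. Values above 0 were found in 59 of 83 members (71.1%), against 58.9% of all genes tested. That share depended on the scaling, at 60.2% with DESeq2, 63.9% when libraries were scaled to their total counts and 59.0% with a loess offset on abundance. The share over all genes was not counted for these scalings, so 58.9% is not its counterpart there. The median log2 fold change over all genes fell too, to 0.004, 0.01 and -0.006 in that order. The members' medians were then 0.09, 0.10 and 0.09.

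Each KO library exceeded each Ctrl library in 26 of 83 members (31.3%), where 17.8% of all genes tested did, and below both in 3, where 8.93% did. The groups overlapped in the other 54. The pattern came mainly from KO 2. In KO 2, 54 members (65.1%) lay above both Ctrl libraries and 7 (8.43%) below both, against 40.1% and 23.6% of all genes tested. In KO 1, 31 (37.3%) lay above and 24 (28.9%) below, against 33.9% and 24.9% of all genes. Over the members the median difference in log2 CPM was 0.23 for KO 2 minus KO 1 and 0.21 for KO 2 minus Ctrl 2, against 0.03 and 0.14 over 11524 genes. Without KO 2 the median log2 fold change of the members was 0.09 and that of all genes 0.04, and without KO 1 they were 0.30 and 0.06. KO 2 is also the library with the largest share of counts in promoter peaks, and the part of this in the members' values was not tested.

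**Figure D3:**
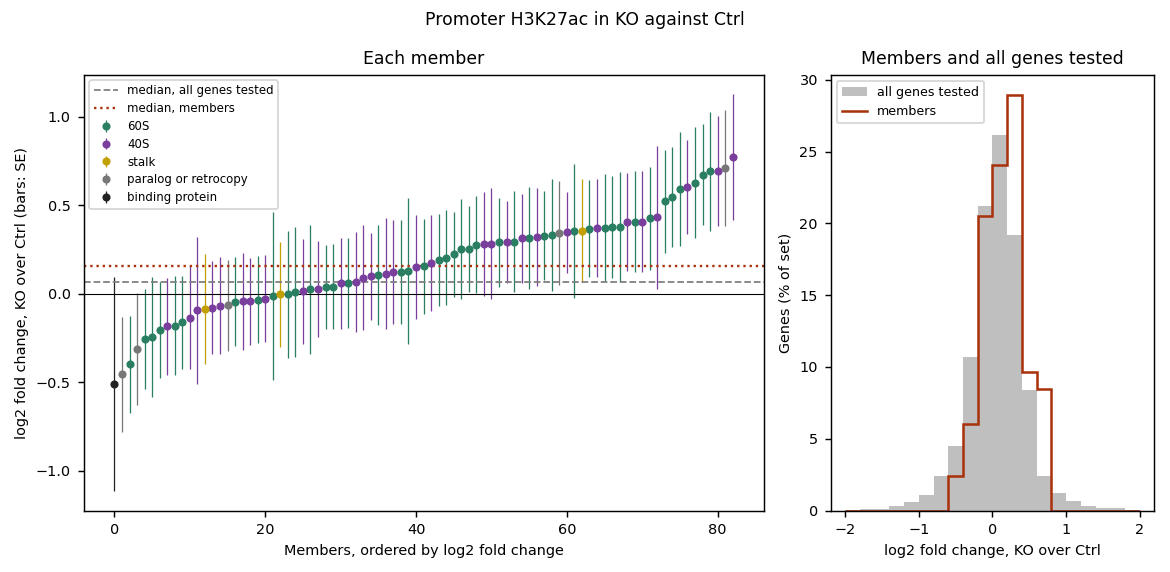
The log2 fold change of promoter H3K27ac, KO over Ctrl, is plotted with its SE for each of the 83 tested members (left, coloured by group) and as the share of genes per step of 0.2 for members and all 11561 genes tested (right, drawn from -2 to 2). Members run from -0.51 (Rps19bp1) to 0.77 (Rps27), and the members' distribution sits slightly to the right of that of all genes.

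The 3 members with an unadjusted p under 0.05 were Rpl14, Rps9 and Rps28. Rpl14 measured 26.2 and 27.4 CPM in Ctrl and 44.7 and 41.0 CPM in KO, a log2 fold change of 0.67 (SE 0.29, edgeR adjusted p = 0.999). Rps9 measured 35.3 and 34.5 CPM in Ctrl and 52.9 and 53.2 CPM in KO, a log2 fold change of 0.60 (SE 0.27, edgeR adjusted p = 0.999). For both the KO libraries were close to each other and clear of the Ctrl libraries. Rps28, a small protein of the 40S subunit, measured 19 and 25.9 CPM in Ctrl and 37.3 and 35.9 CPM in KO, a log2 fold change of 0.69 (SE 0.31, edgeR adjusted p = 0.999), from a peak it shares with Ndufa7. Rpl14 and Rps9 had the lowest levels per kb in Ctrl of all tested members, and the Ctrl values that set this order also enter the fold change. Their values stayed above 0 whichever library was left out, between 0.61 and 0.74 for Rpl14, 0.59 and 0.62 for Rps9 and 0.50 and 0.94 for Rps28.

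Other members had fold changes of that size with an unadjusted p above 0.05. Rps27, a zinc-finger protein of the small subunit, had the largest, 0.77 (SE 0.35), with 14.0 and 21.1 CPM in Ctrl and 24.96 and 35.5 CPM in KO. All promoter peaks of Rps27 were shared with Rab13, so this value cannot be assigned to Rps27 alone. Rpl7l1 had 0.71 (SE 0.33), with 16.7 and 16.4 CPM in Ctrl and 26.1 and 28.0 CPM in KO. Rpl23, a large subunit protein that can bind MDM2, had 0.69 (SE 0.34), with 22.2 and 37.8 CPM in Ctrl and 39.5 and 58.0 CPM in KO. With 1 library left out the values ran from 0.49 (without KO 2) to 1.12 (without Ctrl 2) for Rps27, from 0.66 to 0.76 for Rpl7l1, and from 0.38 to 1.14 for Rpl23. In each of the 3 the groups did not overlap. These 5 largest values (Rps27, Rpl7l1, Rps28, Rpl23 and Rpl14) were all from genes below the median level per kb of the members in Ctrl. The same Ctrl values enter the level and the fold change, so the link between them is not independent.

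At the lower end the values were smaller in number and in size, and none had an unadjusted p under 0.05 in edgeR. Rps19bp1 had a log2 fold change of -0.51 (SE 0.60), from 22 (Ctrl 1), 30 (Ctrl 2), 11 (KO 1) and 37 (KO 2) counts. Rpl22l1 had -0.46 (SE 0.32), with 48.4 and 29.5 CPM in Ctrl and 29.1 and 27.3 CPM in KO, so that Ctrl 1 alone stood high. Rpl36 had -0.40 (SE 0.28), with 69.7 and 94.6 CPM in Ctrl and 52.2 and 72.4 CPM in KO, overlapping. Rpl3l had -0.31 (SE 0.32) and Rpl15 -0.25 (SE 0.28). With 1 library left out these values ran from -1.19 to -0.09 for Rps19bp1, -0.78 to -0.07 for Rpl22l1, -0.66 to -0.16 for Rpl36, -0.70 to -0.03 for Rpl3l and -0.43 to -0.09 for Rpl15. The 3 members with both KO libraries below both Ctrl libraries were Rps19bp1, Rpl22l1 and Rps24, the last with a log2 fold change of -0.13 (SE 0.29).

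By role, 33 of 43 large subunit genes and 23 of 31 small subunit genes had values above 0, with medians of 0.22 and 0.12. The stalk was mixed. Rplp0, the protein on which the stalk is built, measured 34.8 and 30.7 CPM in Ctrl and 36.1 and 47.2 CPM in KO (log2 fold change 0.36, SE 0.29). Rplp1 measured 40.3 and 47.9 CPM in Ctrl and 35.02 and 52.7 CPM in KO, and Rplp2 30.8 and 39.9 CPM in Ctrl and 27.6 and 38.8 CPM in KO. In Rplp1 and Rplp2 library 2 stood above library 1 in both groups, and their log2 fold changes were 0.00 and -0.09 (SE 0.30 and 0.31). Among the 5 tested paralogs, 2 were above 0. The 4 X-linked members (Rpl10, Rpl36a, Rpl39 and Rps4x) were all above 0, between 0.11 and 0.52.

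Rpl5 and Rpl11, which enter the ribosome with 5S ribosomal RNA and, when free, restrain MDM2 and so raise p53, were on opposite sides of 0. Rpl5 measured 47.5 and 42.0 CPM in Ctrl and 43.6 and 35.5 CPM in KO (log2 fold change -0.18, SE 0.28). Rpl11 measured 37.1 and 60.4 CPM in Ctrl and 56.3 and 91.3 CPM in KO (0.59, SE 0.32). KO 1 lay between the Ctrl libraries in Rpl5 and in Rpl11, so neither separated the groups. For Rpl11 the fold change was 0.20 without KO 2 and 0.999 without Ctrl 2. Rpsa, which doubles as a laminin receptor, had 0.31 (SE 0.25), with 50.7 and 55.1 CPM in Ctrl and 60.4 and 70.9 CPM in KO. Rps6, the substrate of S6 kinase in the mTOR pathway, measured 75.1 and 39.3 CPM in Ctrl and 69.3 and 68.5 CPM in KO, both KO libraries between the Ctrl libraries (0.28, SE 0.31).

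Rps19, mutated in inherited red cell aplasia, had 78.7 and 78.0 CPM in Ctrl and 75.3 and 92.2 CPM in KO (0.10, SE 0.25). Rps27a, which encodes ubiquitin fused to a 40S protein, had 81.0 and 56.3 CPM in Ctrl and 65.6 and 54.9 CPM in KO (-0.18, SE 0.27). Rpl29 had 56.6 and 63.7 CPM in Ctrl and 55.5 and 69.7 CPM in KO (0.06, SE 0.26). The libraries of the groups overlapped in all 3. Fau, whose product is also a ubiquitin-type fusion with a ribosomal protein but whose name falls outside the rule, had 0.14 (SE 0.35).

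At the level of single peaks, the members had 153 promoter peaks, 140 of them tested among 74550, with a median width of 1565 bp against 477 bp for all peaks. No member peak was called at an adjusted p under 0.05, and 0.00134% of all peaks tested were. At an unadjusted p under 0.05, 7 member peaks were higher and 1 was lower in KO, where 1.45% and 2.79% of all peaks tested met these rules. The 7 were the start-site peaks of Rpl11, Rpl23, Rpl26 and Rps28 and other peaks near Rps9, Rps16 and Rps27, and the lower one lay 2393 bp from the TSS of Rps15, with 6.33 and 10.7 CPM in Ctrl and 4.84 and 2.16 CPM in KO. For Rps9 this was the inner peak, 1015 bp from the TSS, with 18.1 and 13.1 CPM in Ctrl and 27.6 and 25.6 CPM in KO. Its start-site peak measured 17.2 and 21.4 CPM in Ctrl and 25.3 and 27.6 CPM in KO, so the groups did not overlap in either peak. DESeq2 called 0 member peaks.

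The share of all promoter counts taken by members was 1.04% and 1.09% in Ctrl and 1.07% and 1.14% in KO, from 0.690% of the promoter peaks. Exact Clopper-Pearson intervals at the 95% level, which cover counting error only, were 1.02% to 1.06% and 1.08% to 1.11% in Ctrl and 1.05% to 1.09% and 1.13% to 1.16% in KO. KO 1 lay between the Ctrl libraries, and KO 2 was above them. Summed over members the level was 4513 and 4644 CPM in Ctrl and 4764 and 5596 CPM in KO.

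Genes that build or regulate the ribosome were read from the same fit. Of 102 tested partners on lists of RNA polymerase I, assembly, translation factor, fusion and regulator genes, 0 were called, 69 had values above 0, and 1, the assembly factor gene Ebna1bp2, had an unadjusted p under 0.05 and was lower in KO. Their median log2 fold change was 0.12, from 0.04 in 35 assembly genes to 0.14 in 11 polymerase I genes. The 75 mitochondrial ribosomal protein genes had a median of 0.02 with 39 above 0, and the 47 proteasome genes 0.10 with 33 above 0. In those 2 sets the median difference from KO 1 to KO 2 was 0.02 and 0.10, against 0.23 in members. Among the members, the 30 snoRNA hosts had a median of 0.27 with 24 above 0 and the other 53 a median of 0.12 with 35 above 0. A published list of genes with less mRNA in KO large-intestinal Treg cells of adult mice, of which names alone were used, held 19 of the 83 tested members (22.9%) and 533 of all genes tested (4.61%). The study listed only genes that passed a significance cutoff and a minimum mRNA level. Genes of low mRNA level could not be listed, so these shares do not rest on like sets. Over the 533 the median log2 fold change of H3K27ac was -0.02, with 249 above 0. Of the 19 members, 13 were above 0 in H3K27ac, with a median of 0.10, and of the other 64 members 46 were, with a median of 0.20.

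By abundance, the median log2 fold change over all genes was 0.20 in the highest decile and between -0.0049 and 0.083 in the others. Over members it was 0.32 in the highest decile (8 genes), 0.12 to 0.15 in deciles 6 to 9 and 0.38 in decile 5 (5 genes). Deciles 2 to 4 held 4 members in all, with medians of -0.51, 0.21 and 0.71, so the members' values did not rise steadily with abundance.

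**Figure D4:**
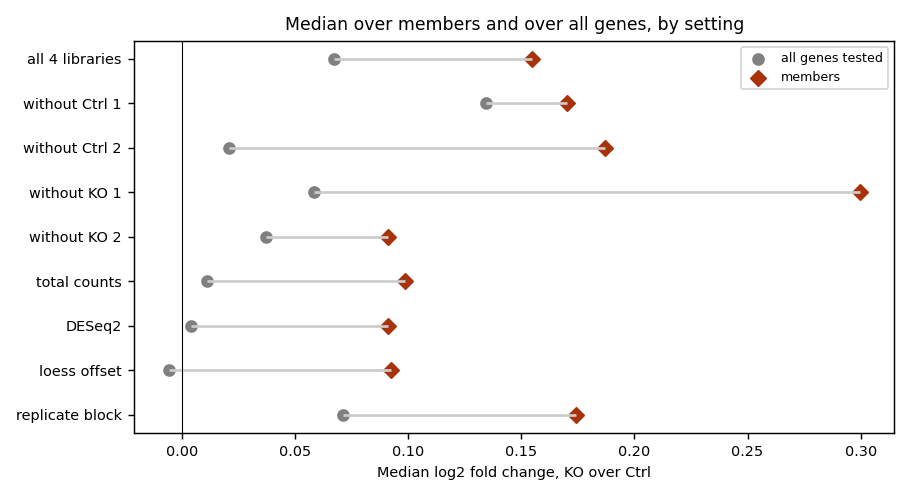
The median log2 fold change, KO over Ctrl, is plotted for members (red diamonds) and for all genes tested (grey circles) with all 4 libraries, with each library left out, and under 4 other ways of fitting. The members' median is above that of all genes in every setting drawn, by 0.04 without Ctrl 1 and by 0.24 without KO 1.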

How the data were processed

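H3K27ac CUT&Tag of large-intestinal Treg cells was available as deposited raw read counts per peak for 4 libraries. The authors trimmed the reads, aligned them to mm10 with Bowtie2, kept unique non-duplicate reads, called peaks with MACS2 against IgG, merged them with bedtools and counted reads per merged peak, with versions not given in the sources used here. The IgG library was not analysed here. Because the peaks were called on the libraries compared, the peak set depends on their signal.

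Of 124158 peaks, 22184 lay within 3 kb of a TSS of a GENCODE M21 basic protein-coding transcript; each was counted for every such gene. Genes and peaks for which 2 or more libraries held 10 or more counts were tested, KO against Ctrl, by quasi-likelihood F-test in edgeR 4.0.16 (R 4.3.3), with TMM factors of the peak table, no covariate and Benjamini-Hochberg adjustment over all features. The fit had 2 residual and 8.88 prior degrees of freedom. CPM are counts scaled to counts in tested peaks after TMM. SE came from the log2 fold change and F. Nothing says that replicates share more than a genotype. The p-values measure the spread between these pooled libraries, with each feature's spread drawn towards that of all features tested by the prior. Tested members had medians of 99 to 238 counts per library. Alternatives were DESeq2 1.42.0, other scalings, count minimums, TSS windows and assignments, the replicate number as a block, and leaving out each library. The code was tested on simulated counts.

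Members and lists were chosen with earlier results of these data known. Named were the 5 highest and 5 lowest members by Ctrl level per kb and by fold change, those with an unadjusted p under 0.05, genes fixed for role, paralog pairs and members without a peak. Values of some single genes are not reported here.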

Additional observations from a re-analysis of the deposited data

How the results depend on the processing

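With 2 libraries per group and medians of 99 to 238 counts per member and library, small changes could not be resolved, and 0 members were called at an adjusted p under 0.05 in edgeR in any setting tried, for genes or for peaks. The median log2 fold change of the members kept its sign in all 14 alternatives, between 0.09 and 0.30, and leaving out 1 library moved it from 0.09 (without KO 2) to 0.30 (without KO 1). The number of members with an unadjusted p under 0.05 was 3, and it became 0 with DESeq2, after scaling to total counts and with a loess offset on abundance, 17 with a replicate block (16 of them higher in KO, with 10.1% of all genes tested at that p) and 0 to 5 with 1 library left out. The cause was not tested. For the replicate block, deviations of same-numbered libraries from their group means correlated at 0.453, but the labels give the number no other meaning and there are only 2 pairs, so it was not taken as a pairing.

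Single genes near 0 changed sign. Under other scalings or assignments Rpl29 was at -0.0080 with DESeq2 and -0.036 with loess, Rplp1 at 0.047 with a 1 kb window, and Rps19 at -0.026 with loess and -0.030 with 1 TSS per gene. With 1 library left out, the log2 fold change ran from -0.45 to 0.57 for Fau, -0.54 to 0.41 for Rpl22, -0.12 to 0.21 for Rpl29, -0.39 to 0.84 for Rpl36a, -0.22 to 0.11 for Rpl36al, -0.45 to 0.084 for Rpl7, -0.34 to 0.25 for Rplp1, -0.36 to 0.13 for Rplp2, -0.058 to 0.24 for Rps19, -0.43 to 0.095 for Rps27a and -0.12 to 0.81 for Rps6.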
